A study of Bos taurus with 60 samples.

Results

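The bovine mammary RNA-Seq libraries assigned reads to 25223 loci assembled from the reads, and 1497 of these loci carried no ENSEMBL gene identifier. The 360 loci described here were 359 of those 1497 that reached 5 CPM or more (CPM, the counts scaled to a common library total) in 30 or more of the 60 samples, plus locus XLOC_021690, which was taken whatever its level. The values that chose the loci were therefore their own levels, and levels are given as a description. At the edge of the rule, 4 loci reached 5 CPM in exactly 30 samples, among them XLOC_019545 (mean 4.85 CPM), XLOC_002641 (4.71 CPM) and XLOC_000609 (4.70 CPM). Just outside, 5 loci reached it in 29 samples, among them XLOC_017865 (19.1 CPM), XLOC_024581 (5.94 CPM) and XLOC_024037 (4.83 CPM). All 360 loci passed the filter for testing (1 CPM or more in 6 or more samples), as did 14714 loci in all, and 98 of the 360 were at 5 CPM or more in all 60 samples.

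The samples were mammary biopsies from 12 multiparous Holstein cows, each sampled 3 days before dry-off (D-3, late lactation) and 3, 7, 14 and 25 days after it (D3, D7, D14 and D25). After dry-off, 6 cows were kept with shade, fans and soakers (cooled, CL) and 6 with shade alone (heat-stressed, HT), so that at D-3 neither group had begun its treatment. Counted reads per library ranged from 20525083 to 26183990, which makes 1 CPM by library size about 22.6 reads at the median depth. Most CPM below are also scaled by TMM factors, explained with the shares of reads, which ran from 0.300 to 1.21 at D-3. In libraries with a low factor 1 CPM stood for fewer reads. In HT cow 8713 at D-3, with the factor 0.300, 3.67 CPM of XLOC_022989 was 27 reads.

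A locus of this kind is a stretch of the genome where the assembler joined reads into a transcript and the annotation names no gene. Such loci can be long non-coding RNAs, unannotated exons or extended ends of a neighbouring gene, or members of gene families that the assembly handles poorly. In the mammary gland, dry-off ends milk removal, the secretory epithelium stops making milk proteins and regresses during involution, and new epithelium grows before the next lactation. Sequences and positions of these loci are not given here, so they are named by locus number, and a level is a share of reads that is not corrected for transcript length.

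Several libraries stood apart. The D14 and D25 libraries labelled cow 8513 deviated from their group means together with the early libraries of cow 8660 (mean correlation over all tested loci 0.46 and 0.55) rather than with those of cow 8513 (-0.17 and -0.03). The libraries labelled cow 8660 showed the reverse (0.32 and 0.41 against 0.11 and 0.13). Both cows were HT, so HT versus CL values are not touched by an exchange of these labels, and results that follow single cows are given with and without it. The D14 library of CL cow 7965 had the lowest mean correlation with the other libraries of its own cow (0.814). Before dry-off the tissue differed widely among cows: the milk protein genes CSN1S1, CSN2 and LALBA together took 40.2 to 49.8% of the reads in cows 8564, 7965, 8541, 8647 and 8713, and 0.190 to 8.03% in the other 7 cows.

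The 360 loci took a small share of the reads, and that share was lowest and most scattered before dry-off. They made up 1.43% of all loci and took 0.414 to 2.50% of a library's reads, with a median of 1.61%. At D-3 the share ranged from 0.485% to 1.84% in CL cows (median 1.23%, n = 6) and from 0.414% to 1.72% in HT cows (median 1.25%, n = 6). The 5 cows richest in milk protein reads at D-3 had the 5 lowest shares, 0.414 to 0.672%, while the other cows had 1.12 to 1.84%. The median over the 12 cows went from 1.25% before dry-off to 1.55, 1.61, 1.56 and 1.79% at the 4 later days in order. The share was higher at D25 than at D-3 in 10 of 12 cows. TMM factors (trimmed mean of M values) adjust for reads taken up by a few abundant genes. Scaling by them gave medians of 1.45, 1.34, 1.43, 1.48 and 1.58% at the 5 days in order. The low values at D-3 were then no longer below those of D3. Without the 20 loci with the most reads, 1 of the 360 among them, the medians were 1.29, 1.33, 1.39, 1.38 and 1.54%. There D-3 was still the lowest. CL and HT overlapped at every day, with medians of 1.65 and 1.45% at D3, 1.72 and 1.46% at D7, 1.54 and 1.62% at D14, and 1.83 and 1.66% at D25.

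**Figure D1:**
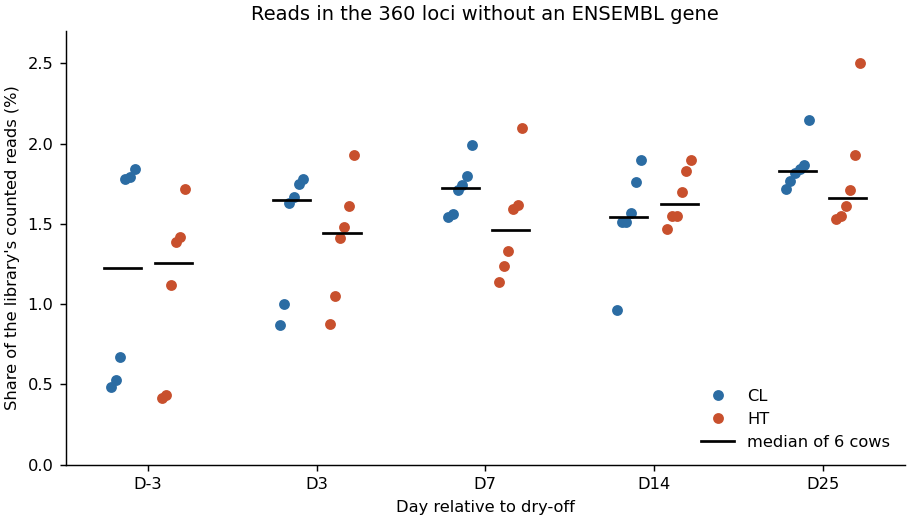
Share of each library's counted reads (%, vertical axis) in the 360 loci at the 5 days (horizontal axis), with 1 point per cow and a bar at the median of 6 cows, CL in blue and HT in red. At D-3 the points lie in a low set from 0.414 to 0.672% and a high set from 1.12 to 1.84% in both groups, and at D25 all lie at 1.53% or more.

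A few loci held most of these reads. XLOC_023993 alone took 18.6% of the reads of the 360 loci, the first 4 loci took 42.5% and the first 10 took 51.3%. The other 3 of the first 4 were XLOC_001545 (9.69%), XLOC_013569 (7.42%) and XLOC_024356 (6.75%). XLOC_023993 was among the 20 loci of the whole data set with the most reads. Its TMM-scaled level ranged from 523 to 5416 CPM at D-3 (median 1518, n = 12), from 429 to 3779 at D3 (1474), from 1234 to 8010 at D7 (2848), from 203 to 5794 at D14 (2650) and from 1757 to 11003 at D25 (2732). The highest value belonged to HT cow 8541 at D25 and the lowest to CL cow 7965 at D14, the library named above, and the ranges of all days overlapped. None of the day-to-day changes of XLOC_023993 passed the test (edgeR FDR 0.868 for D3 vs. D-3 and 0.242 for D7 vs. D3).

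The next loci were steadier. XLOC_001545 had medians of 1471, 1355, 1350, 1371 and 1475 CPM at the 5 days in order, within 620 to 2513 CPM. XLOC_013569 had medians of 776, 971, 1026, 1124 and 1305 CPM in the same order. XLOC_024356 had medians of 951, 794, 938, 932 and 915 CPM. The SD between cows was 224 to 510 CPM at each day for these 3 loci, and none of their steps at D3 or D7 passed the test. Of the next 6 loci by reads, XLOC_017151 is described with the loci that fell, and XLOC_016308 fell at D3 (-0.75 ± 0.27 on the log2 scale, SE, FDR 0.0463), from a median of 404 to 337 CPM and lower in 9 of 12 cows, but the value was 0.07 with scaling by library size alone (FDR 0.762), and the call was lost under 11 other alternatives. XLOC_009689 rose at D3 (0.39 ± 0.14, FDR 0.0499), from a median of 153 to 219 CPM and higher in 10 of 12 cows, and this call was lost under 9 alternatives. XLOC_001266, XLOC_020453 and XLOC_017563 passed the test neither at D3 nor at D7, with medians between 155 and 249 CPM at every day.

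Across the dry period most loci moved little. The means of log2 CPM at the 5 days spanned under 0.5 for 206 of the 360 loci (57.2%) and at least 1 for 42 (11.7%), beside 61.9% and 11.3% of all tested loci and 69.2% and 7.65% of the tested loci that met the same rule on level. The highest daily mean fell at D25 for 126 loci (35.0%), at D-3 for 116 (32.2%), at D3 for 57 (15.8%), at D14 for 32 and at D7 for 29. Among all tested loci 22.0% were highest at D25, 32.4% at D-3 and 21.6% at D3.

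The step from late lactation to D3 held most of the change. In the edgeR quasi-likelihood test, 51 of the 360 loci passed an FDR of 0.05 (14.2%), beside 15.1% of all tested loci. Of these, 15 rose (all tested loci 6.03%) and 36 fell (9.04%). The median log2 fold change was -0.04 over the 360 loci and -0.01 over all tested loci. With the cow as a replicate block, the paired fit called 77 loci (26 up and 51 down), beside 21.5% of all tested loci. Scaled by library size alone, 29 rose (8.06%, beside 15.1% of all tested loci) and 5 fell (1.39%, beside 1.20%), while the median of all tested loci shifted to 0.35 and that of the 360 loci to 0.30. Without HT cow 8541 the count was 29, without CL cow 8564 it was 30, without CL cow 8647 it was 29 and without HT cow 8713 it was 30. The count over all tested loci fell alike, from 2217 to 1388, 1254, 1258 and 1230. These are 4 of the 5 cows rich in milk protein reads at D-3. Without the other such cow, CL cow 7965, the count was 45, and 1797 over all tested loci. Leaving out a cow poor in milk protein reads gave counts from 40 (CL cow 8603) to 57 (CL cow 8686).

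**Figure D2:**
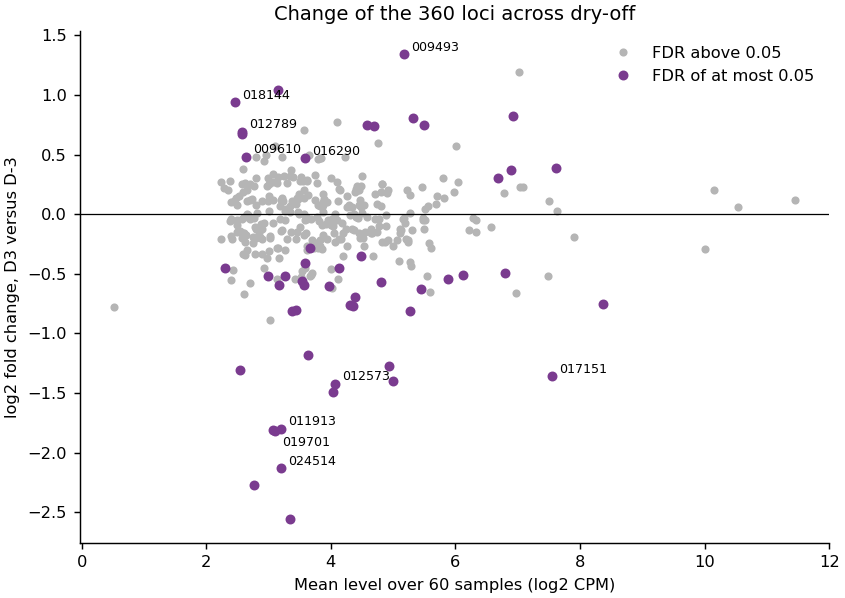
Log2 fold change of D3 versus D-3 (vertical axis) against the mean level over the 60 samples in log2 CPM (horizontal axis) for the 360 loci, with 1 point per locus. The 51 purple points passed an FDR of 0.05, the falls reach -2.56 and the rises 1.34, and the numbers label 10 loci chosen by size of change among those that moved the same way in at least 11 of 12 cows.

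Of the loci that fell, 12 of 36 did so in at least 11 of the 12 cows, and the 5 of these with the largest fall are described. XLOC_024514 ranged from 4.48 to 72.1 CPM at D-3 (median 9.88) and from 2.15 to 12.2 at D3 (6.15), a fall of -2.13 ± 0.39 (log2, SE, FDR 0.000148) seen in 11 cows. Its D-3 values were 30.9 CPM or more in the 5 cows rich in milk protein reads and 9.97 CPM or less in the other 7. XLOC_017151, also among the 10 most abundant, ranged from 129 to 996 CPM at D-3 (median 223) and from 111 to 235 at D3 (149), and changed by -1.36 ± 0.23 (FDR 4.79e-05) in 11 cows. The same 5 cows had 534 CPM or more before dry-off and the other 7 had 230 CPM or less. XLOC_012573 went from a median of 23.2 to 12.2 CPM (-1.42 ± 0.29, FDR 0.000551) and was lower in all 12 cows, and the same 5 cows were again the highest at D-3, at 36.0 to 91.1 CPM.

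XLOC_011913 went from a median of 14.0 to 4.59 CPM (-1.80 ± 0.51, FDR 0.0118) in 12 of 12 cows. XLOC_019701 went from 7.14 to 2.90 CPM (-1.82 ± 0.53, FDR 0.0142) in 11 cows and returned to 9.10 CPM at D7, a rise that passed the test there (1.77 ± 0.53, FDR 0.0499) but not in the paired fit with the replicate block (FDR 0.0920), and was lost under 15 alternatives in all. The order of cows at D-3 differed for this locus, since cow 8713 had 5.44 CPM and cow 7965 had 6.94 CPM, inside the range of the cows poor in milk protein reads. The largest fall of any of the 360 loci, -2.56, was that of XLOC_019696, which was lower in 10 cows and is named for its size after its value was seen.

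At D3 the 15 rises had a median log2 fold change of 0.74 and the 36 falls of -0.76. The largest rise was 1.34 and the largest fall -2.56, and 5 of the 15 rises held in at least 11 cows. XLOC_009493 averaged 17.6 ± 14.6 CPM (SD, n = 12) at D-3 (median 17.8) and 45.2 ± 37.6 CPM at D3 (35.9), a rise of 1.34 ± 0.47 (FDR 0.0451) in 11 cows. XLOC_018144 went from a median of 3.75 to 7.29 CPM (0.94 ± 0.23, FDR 0.00366) and XLOC_012789 from 5.38 to 7.92 CPM (0.69 ± 0.19, FDR 0.00862), each in 11 cows. XLOC_009610 (0.48 ± 0.16, FDR 0.0311) and XLOC_016290 (0.47 ± 0.16, FDR 0.0429) were higher in 12 of 12 cows. The call was lost under 4 alternatives for XLOC_009610 and under 8 for XLOC_016290. In all 5 loci the ranges of the 12 cows at D-3 and at D3 overlapped.

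Milk genes moved with many of these loci. Over the 60 samples, the log2 CPM of the 36 loci that fell had a median Pearson correlation of 0.63 (range 0.11 to 0.83) with the mean of 8 milk secretion genes (CSN1S1, CSN2, LALBA, FASN, XDH, BTN1A1, LPL and SCD), and 20 of the 36 were at 0.6 or more. The median over all 360 loci was -0.05 and over all tested loci -0.03. The 15 loci that rose had a median of -0.33 (range -0.84 to 0.03). The same samples chose the loci and gave the correlations, which also share library and cow, so these values are a description. The 8 genes had a mean log2 CPM of 7.21 to 14.66 in CL and 8.07 to 14.89 in HT at D-3, and of 4.73 to 9.73 and 5.93 to 10.27 at D3. With 4 myoepithelial genes (ACTA2, MYH11, CNN1 and KRT5) the medians were -0.05 for the loci that fell and 0.19 for those that rose, and with 7 genes of dividing cells (MKI67, TOP2A, CCNB1, BUB1B, FOXM1, NEK2 and CKS2) they were -0.44 and 0.10. The part of these tissue differences in the changes was not tested, and in whole tissue fewer cells of a type and less RNA per cell cannot be told apart.

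Fewer loci changed between D3 and D7. Of the 360 loci, 9 passed the test (2.5%), beside 2.92% of all tested loci, with 2 up (all tested loci 0.625%) and 7 down (2.3%). With the replicate block the paired fit called 20 (8 up and 12 down), beside 5.99% of all tested loci. The count fell to 0 without CL cow 8564, 1 without HT cow 8541, 2 without CL cow 8647, 3 without HT cow 8660 and 1 without HT cow 8713. The count over all tested loci fell from 430 to 49, 126, 127, 247 and 137 in the same order. Both comparisons share the D3 samples, so their values are given side by side. Of the 7 loci that fell at D7, 5 had passed the test as a rise at D3. Both loci that rose at D7 had passed it as a fall at D3. The same counts over all tested loci are not given here, so these are a description and not a trait of the 360 loci.

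XLOC_001313 ranged from 22.4 to 54.1 CPM at D-3 (median 34.6), from 19.4 to 124 at D3 (55.5) and from 15.8 to 58.5 at D7 (30.3). It was lower at D7 than at D3 in 12 of 12 cows (-0.92 ± 0.23, FDR 0.0203). Its level followed the 4 myoepithelial genes over the 60 samples (Pearson r = 0.74). Its most similar locus was XLOC_005246, which holds TAGLN (r = 0.89), and the cell type that held it was not tested. XLOC_012789 had medians of 5.38, 7.92 and 4.87 CPM at D-3, D3 and D7 and fell by 0.71 on the log2 scale (SE 0.19, FDR 0.0249) at D7 in 11 cows. XLOC_018113 fell in 11 cows, from a median of 12.6 to 8.01 CPM (-0.64 ± 0.16, FDR 0.0219). The only locus that rose at D7 in at least 11 cows was XLOC_010835, with medians of 10.5 CPM at D-3, 7.11 at D3 and 11.2 at D7 (0.57 ± 0.16, FDR 0.042). The number before it, XLOC_010834, holds HOXD3, HOXD4 and MIR10B, homeobox transcription factor genes and a microRNA gene, and was its most similar locus (r = 0.78).

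**Figure D3:**
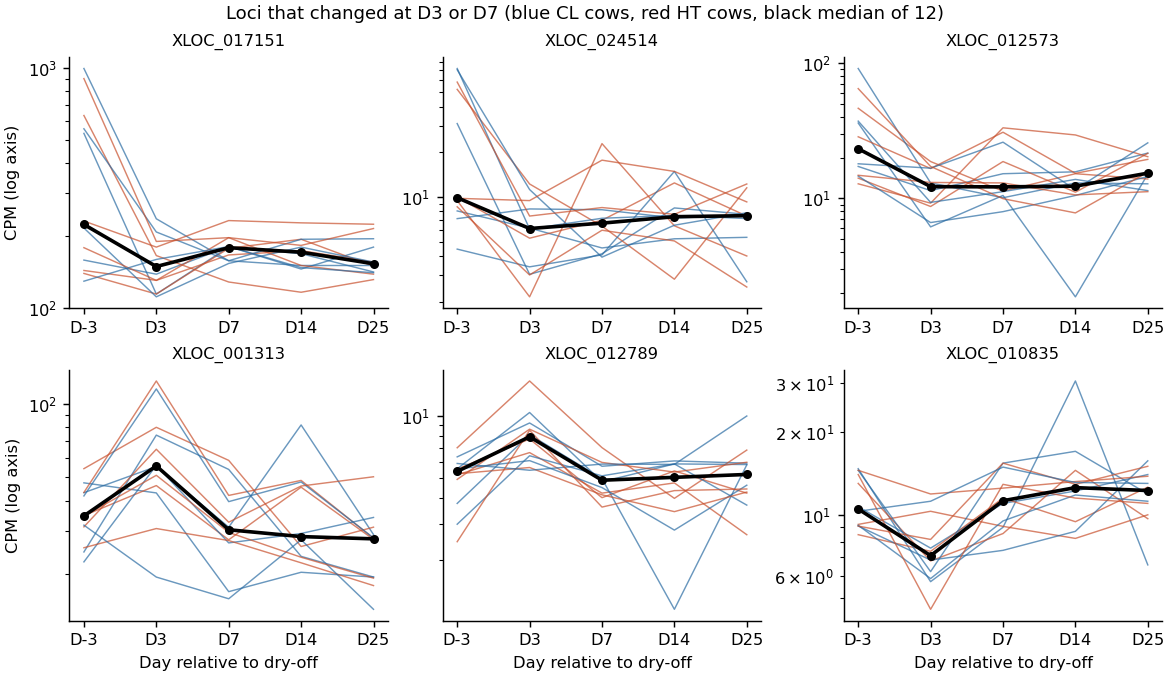
CPM after TMM scaling (vertical log axis) at the 5 days (horizontal axis) of 6 loci, with 1 thin line per cow (CL blue, HT red) and the median of 12 cows in black. The upper 3 loci fell at D3 from medians of 223, 9.88 and 23.2 CPM to 149, 6.15 and 12.2 CPM, and of the lower 3 loci XLOC_001313 and XLOC_012789 peaked at D3 while XLOC_010835 was lowest there.

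After D7 no locus passed the test. For D14 vs. D7 edgeR called 0 of the 360 loci and 0% of all tested loci. In that test 3 of the 360 were at an unadjusted p under 0.05 (0.833%, beside 1.75% of all tested loci). DESeq2 also called 0 of the 360 and 0% of all tested loci. For D25 vs. D14 edgeR called 0 of the 360 beside 0.0612% of all tested loci, with 5 at an unadjusted p under 0.05 (1.39%, beside 3.63%). DESeq2 called 0 of the 360 there, beside 0.0272% of all tested loci. Without the D14 library of cow 7965 the edgeR counts of both comparisons stayed at 0, with 1 and 0 loci at an unadjusted p under 0.05.

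Many loci differed between cows. In a test of differences between cows of the same treatment, with the day as a term, 240 of the 360 loci passed (66.7%), beside 59.4% of all tested loci. Among loci at 5 CPM or more in at least 30 samples, 244 of 359 passed (68%), beside 63.1%. The share was 71.9% (259 loci) after exchanging the late labels of cows 8513 and 8660, beside 65.8% of all tested loci, and 56.7% (204 loci) without both cows, beside 51.5%. It was 71.1% (256 loci) without the D14 library of cow 7965, beside 63.7%, and 24.7% (89 loci) with scaling by library size alone, beside 15.7%. The SD of the cow means of log2 CPM had a median of 0.283 over the 360 loci, 0.258 over all tested loci and 0.233 over those that met the same rule on level.

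The extreme of these differences was a locus expressed in some cows and at or near 0 in others through the whole series of biopsies. A cow was called on for a locus when 4 or more of its 5 samples held 5 CPM or more, and off when 4 or more held under 1 CPM. By this rule 7 of the 360 loci had at least 1 cow on and 1 off (1.94%), beside 0.639% of all tested loci. In all 12 cows 226 of the 360 were on, a number that the rule on level favours. It is not given here for all tested loci, so it is a description. Among loci at 5 CPM or more in at least 30 samples, where the level rule applies to all alike, 0.129% were on/off. The rule that kept the loci asked for expression in 30 samples, so it excluded loci seen in only a few cows.

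XLOC_008876 was off in 1 cow. HT cow 8541 had 0 CPM at the first 4 biopsies and 0.0374 CPM at D25, while the other 11 cows had 0.770 to 13.7 CPM. XLOC_017547 was off in CL cow 8686, at 0 to 0.0819 CPM, while CL cow 7965 had 0.275 to 6.09 CPM and HT cow 8541 reached 25.7 CPM. XLOC_022989 was off in CL cow 7965, at 0.144 to 0.951 CPM, and on in the other 11 cows, at 2.87 to 22.4 CPM. Each of these 3 loci was thus under 1 CPM in a single cow at all 5 biopsies, across lactation and involution.

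XLOC_016438 was off in 2 CL cows, 7965 (0.193 to 0.513 CPM) and 8647 (0.119 to 0.542 CPM), and on in 8, where it reached 34.8 CPM. XLOC_022887 was off in CL cows 8564 (0.0370 to 0.241 CPM) and 8603 (lowest 0.326 and median 0.790 CPM) and on in 6. XLOC_003377 was off in cow 8647 alone, at 0.596 to 1.22 CPM, and on in 7. Some cows lay between the states, 2 for XLOC_016438, 4 each for XLOC_022887, XLOC_003377 and XLOC_008876, 5 for XLOC_003382, 6 for XLOC_017547 and 0 for XLOC_022989. An example is CL cow 8686, with 1.03 to 2.85 CPM of XLOC_022887.

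XLOC_003382 showed the labels of cows 8513 and 8660 most plainly. Cow 8513 had 34.9, 38.2 and 33.6 CPM at D-3, D3 and D7 and then 0 at D14 and D25. Cow 8660 had 0, 0.0407 and 4.23 CPM at the early days and then 42.7 and 50.0 CPM. As labelled, 4 cows were on and 3 off (CL cows 7965, 8564 and 8603), and with the labels exchanged at D14 and D25 5 were on and 4 off. In CL cow 8603 all 5 samples were at 0 CPM. The same 7 loci were on/off under both labellings.

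**Figure D4:**
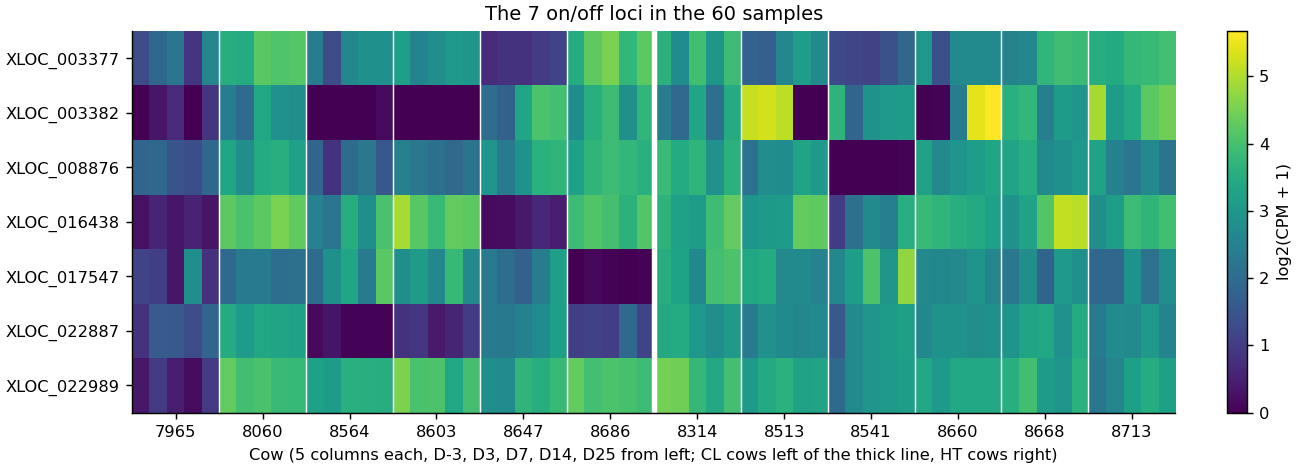
Levels of the 7 on/off loci (rows) in the 60 samples (columns, 5 per cow in day order, CL cows left and HT cows right of the thick line), in log2(CPM + 1) by colour. Dark blocks of 5 columns mark cows where a locus was off at every day, such as cow 8541 for XLOC_008876, and XLOC_003382 is dark at the last 2 days of cow 8513 and bright at the last 2 days of cow 8660.

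Some on/off loci rose and fell together with another locus over the 60 samples, which share cows. XLOC_008876 was most like XLOC_008296 (r = 0.96 in log2 CPM), a locus also without an ENSEMBL gene. XLOC_022887 was most like XLOC_023325, which holds WDR31, a gene for a protein with WD repeats (r = 0.95), and XLOC_003382 was most like XLOC_024000 (r = 0.89), which has no ENSEMBL gene. The best matches of XLOC_003377, XLOC_016438, XLOC_017547 and XLOC_022989 reached 0.82, 0.76, 0.72 and 0.71. The 2 loci XLOC_003377 and XLOC_016438 matched each other at 0.76, and both were off in cow 8647.

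Locus numbers follow the genome: of 2720 consecutive pairs of loci with a gene symbol, 2665 (98.0%) lay on the same chromosome in RefSeq. For 31 of the 360 loci (8.61%) the most similar locus lay within 3 numbers, as it did for 1.20% of the tested loci with an ENSEMBL gene. XLOC_012573, which fell at D3, had FAM107A (XLOC_012572) as its most similar locus (r = 0.98), a gene for an actin-associated protein. The abundant XLOC_001545 was most like its neighbour XLOC_001546 (r = 0.94), and XLOC_012786 and XLOC_012789 were most like each other (r = 0.88). The library kit as described does not mark strand, so reads from overlapping or adjoining transcripts could not be separated. In 4 stretches of locus numbers, with at most 10 numbers between neighbours, 25 of the 360 loci stood close together, the longest from XLOC_003370 to XLOC_003393 with 10 loci. Within it the correlations between pairs over the 60 samples ran from -0.68 to 0.97. These values mix differences between cows with changes over days, and the stretch holds the on/off loci XLOC_003377 and XLOC_003382.

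Heat stress was compared with cooling at each day, over 359 loci without XLOC_021690. The edgeR test called 0 loci at each of the 5 days, and 0% of all tested loci at each day. Unadjusted p-values were under 0.05 for 10, 3, 21, 12 and 11 of the 359 loci in that order (2.79, 0.836, 5.85, 3.34 and 3.06%), beside 2.03, 0.659, 4.57, 1.68 and 2.26% of all tested loci. DESeq2 called 0 of the 359 at each day, beside 0, 0, 0.0204, 0 and 0.00681% of all tested loci. By a looser rule (unadjusted p of at most 0.005 and a log2 fold change of at least 0.5) no locus passed at any day, beside 0.0544%, 0.0204%, 0.319%, 0.0544% and 0.0408% of all tested loci. The 6 HT and 6 CL cows failed to overlap for 0 of the 359 loci at each day, beside 0.0544%, 0.0136%, 0.143%, 0.0408% and 0.068%. The treatment by time interaction called 0 loci and 0% of all tested loci, and the smallest unadjusted p over the 359 loci was 0.0767. With the cow as a replicate block, the paired fit called 0 of the 359, with 2 at an unadjusted p under 0.05 and a smallest of 0.0131.

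The loci with the smallest p at each day show the size of the differences. At D25 XLOC_008612 had 6.99 to 17.0 CPM in HT cows (median 13.3) and 13.6 to 26.6 in CL cows (18.1), a log2 fold change of -0.69 ± 0.22 with an FDR of 0.997. XLOC_008274 had a median of 46.8 CPM in HT and 61.9 in CL (-0.40 ± 0.15, FDR 0.997), and XLOC_017272 of 26.0 and 18.6 (0.51 ± 0.20, FDR 0.997). In each of these loci the groups overlapped. At D7 XLOC_004900 had 8.42 to 24.7 CPM in HT (median 12.4) and 3.74 to 11.2 in CL (6.13), at 1.03 ± 0.34 and an FDR of 0.959. XLOC_024514, which fell at D3, had a median of 7.74 CPM in HT and 4.36 in CL at D7 (1.09 ± 0.37, FDR 0.959), and XLOC_022739 of 13.8 and 24.9 (-0.69 ± 0.23, FDR 0.959).

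At D14 XLOC_015316 had 4.20 to 6.85 CPM in HT and 6.00 to 26.7 in CL (-0.97 ± 0.34, FDR 0.998), where 26.7 CPM was the library of cow 7965 that stood apart. XLOC_016246 had medians of 9.50 and 6.89 CPM (0.43 ± 0.16) and XLOC_001824 of 4.51 and 8.42 (-0.61 ± 0.23), both with an FDR of 0.998. At D3 XLOC_022887, one of the on/off loci, had 5.54 to 10.2 CPM in HT and 0.241 to 7.83 in CL (1.41 ± 0.61, FDR 1.0), and both cows in which it was off were CL. XLOC_013983 and XLOC_018366 were lower in HT at D3 by median, 9.24 against 12.2 CPM and 14.6 against 23.3 CPM, each with an FDR of 1.0. At D-3, before any treatment, XLOC_005301 had medians of 50.3 CPM in HT and 64.8 in CL, XLOC_004205 of 11.4 and 19.3, and XLOC_015316 of 4.62 and 8.25, also with an FDR of 1.0. The log2 fold changes of the loci named were -0.62 to -0.66 at D-3, before treatment, and lay between -0.97 and 1.41 at the later days.

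XLOC_021690 was chosen for its HT versus CL pattern, so its values are a description. It was scarce, with a mean of 1.43 CPM, 1906 reads in all 60 libraries and under 1 CPM in 39 samples, 26 of the 30 HT samples and 13 of the 30 CL samples. At D25 it had 1.02 to 7.61 CPM in CL (median 2.69) and 0.038 to 0.478 CPM in HT (0.192), and the groups did not overlap. At D14 it had 0.185 to 2.47 CPM in CL (0.587) and 0 to 4.90 CPM in HT (0.256), where 4.90 CPM, or 135 reads, came from the library labelled cow 8660. At D7 the medians were 1.09 and 0.513 CPM and at D3 1.31 and 0.219 CPM, and at both days 3 CL cows had 1 CPM or more, while 2 HT cows did at D7 and 1 at D3.

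Values from before treatment are given beside these. At D-3 CL cows had 0.0963 to 11.4 CPM (median 1.05) and HT cows 0 to 0.429 CPM (0.131), with 4 of the 6 HT samples above the lowest CL sample, and this difference was not tested. The highest of all 60 values of XLOC_021690, 11.4 CPM or 302 reads, was CL cow 8603 at D-3. The CL mean was 15.9 times the HT mean at D-3 and 15.8 times at D25, while it was 3.13 times at D3, 2.22 times at D7 and 1.09 times at D14. Single libraries set 2 of these ratios: without CL cow 8603 the ratio at D-3 was 6.17, and without the library labelled cow 8660 the ratio at D14 was 5.47. Within a cow the level changed from biopsy to biopsy, as in CL cow 7965 with 0.0963, 0.434, 0.275, 0.863 and 7.61 CPM. Only 3 of the 60 samples of XLOC_021690 held 5 CPM or more, so no cow could be called on. The on/off rule could therefore not pick this locus. Its most similar loci reached correlations of only 0.60 (XLOC_011552), 0.59 (XLOC_018426) and 0.59 (XLOC_012256) over the 60 samples.

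**Figure D5:**
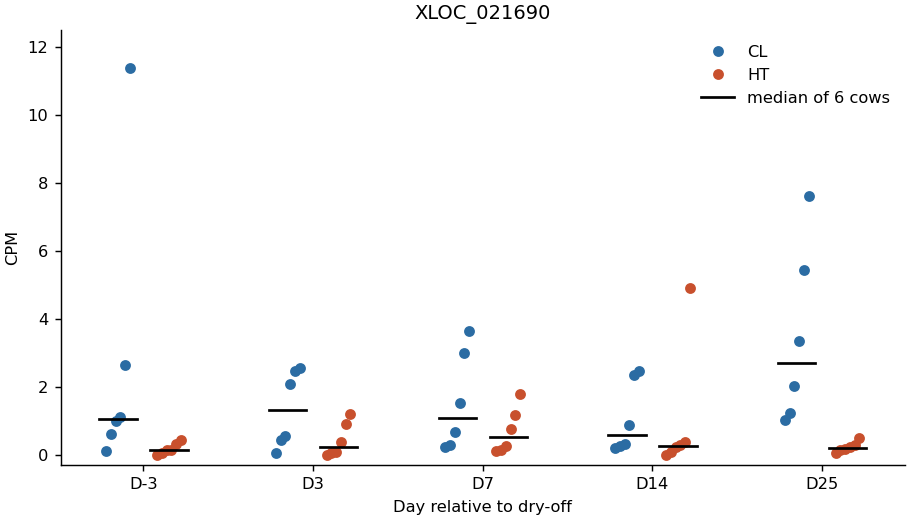
CPM of XLOC_021690 (vertical axis) at the 5 days (horizontal axis), with 1 point per cow and a bar at the median of 6 cows, CL in blue and HT in red. At D25 all 6 CL points, 1.02 to 7.61 CPM, lie above all 6 HT points, at most 0.478 CPM. At D-3 the HT points lie at 0.429 CPM or less, and 4 of the 6 lie above the lowest CL point.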

How the data were processed

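Mammary RNA-Seq libraries of 12 cows at 5 days were used (60 samples, grouped by the treatment, time and subject labels; the cow is the replicate). The deposited values are counts of reads per locus, made by the authors with Trim Galore 0.4.1, TopHat2 2.0.13, Cufflinks 2.2.1 and HTSeq; the labels name build UMD3.1 and the methods another one, so no coordinates are given. From the deposited counts, TMM factors and the edgeR 4.0.16 quasi-likelihood F-test (R 4.3.3) were computed over 14714 loci at 1 CPM or more in 6 or more samples, with Benjamini-Hochberg FDR; printed CPM are TMM-scaled except the means in the rule. DESeq2 1.42.0 was an alternative. Day contrasts used all samples without a cow term. The cow's 5 samples come from 1 animal: same-cow deviations correlated at 0.293 on average and different-cow ones at -0.0253, so blocked values are given where counts moved. Time tests without the block treat repeated samples of a cow as independent. Named loci were the most abundant, those with the largest changes at D3 and D7 in at least 11 cows, the 3 with the smallest p per HT vs. CL contrast, and the on/off loci. The loci, lists and rules were chosen with earlier results of these data known. The scripts were tested on simulated data. Marker genes were paired through the gene symbols that the study reported, which 3033 loci had. This left 8 of 12 milk secretion genes, 4 of 6 myoepithelial genes and 7 of 7 genes of dividing cells. Of 9 marker lists, 6 had fewer than 3 genes paired by symbol and were not used: adipocytes, immune cells, fibroblasts, endothelium, skeletal muscle and blood.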

Additional observations from a re-analysis of the deposited data

Results flagged for a closer look

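In groups of 6 cows, 20 of 118 group values examined held a sample far from the other 5 by Dixon's ratio. Chance alone gives about 5%, but 15 of the 20 were on/off loci, chosen because a cow was off, so the number is not set against chance. The share of reads of CL cow 8647 at D25 was 2.15%, above the 1.72 to 1.87% of the other CL cows. Most of the rest were the on/off loci in the cow where each was off. XLOC_008876 in HT cow 8541 was at 0 CPM at the first 4 biopsies and at 0.0374 CPM at D25. XLOC_022989 in CL cow 7965 was at 0.289, 0.946, 0.354, 0.144 and 0.951 CPM at the 5 days in order. XLOC_017547 in CL cow 8686 was at 0 CPM at D-3 and D14. XLOC_016438 in HT cow 8541 was at 0.992 CPM at D-3, beside 5.98 to 13.3 in the other HT cows. XLOC_003382 was at 0 CPM in cow 8660 at D-3 and in cow 8513 at D25, the cows whose later labels look exchanged. Among the loci named for HT versus CL, XLOC_005301 was at 26.4 CPM in HT cow 8660 at D-3 (others 41.1 to 52.4), XLOC_015316 at 26.7 CPM in CL cow 7965 at D14 (others 6.00 to 10.1), XLOC_022739 at 25.1 CPM in HT cow 8314 at D7 (others 12.0 to 14.6) and XLOC_001824 at 6.00 CPM in CL cow 8603 at D14 (others 7.96 to 9.36).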

How the results depend on the processing

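For D3 vs. D-3, where 51 loci were called, the replicate block called 77, 81 without cows 8513 and 8660 and 80 with their labels exchanged (a setting chosen after seeing the data), and only the 24 samples of the compared days 24. For D7 vs. D3, where 9 were called, the paired counts were 20, 15 and 20, and scaling by library size called 0. Leaving out 1 cow at a time gave 29 to 57 for D3 vs. D-3, 0 to 11 for D7 vs. D3 and 0 for the other day and treatment comparisons. Differences between cows went from 240 to 89 by library size. On/off loci numbered 7 by the rule, 5 with CPM by library size and 6 when all 5 samples of a cow had to agree. With on at 2 CPM or more they numbered 8. A rule of 10 CPM kept 233 loci. The replicate block changed no other count past 1.5 times, and the causes were not tested. Of the loci named for a change at D3 or D7, XLOC_016308 changed sign (0.07 at D3 by library size), and the others kept their direction in every alternative run. Calls were lost most often for XLOC_019701 at D7 (15 alternatives), XLOC_009493 (12), XLOC_016308 (11) and XLOC_010835 (11). At D3 they were also lost for XLOC_009689 (9), XLOC_016290 (8), XLOC_009610 (4), XLOC_019701 (2), XLOC_011913 (1) and XLOC_012573 (1). At D7 they were also lost for XLOC_018113 (6), XLOC_012789 (5) and XLOC_001313 (3). The D3 and D7 counts moved with single cows, and 1 CPM by library size stands for about 22.6 reads at the median depth. After TMM scaling 1 CPM stands for fewer reads in libraries with a low factor. In HT cow 8541 at D-3, 0.992 CPM of XLOC_016438 was 9 reads.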
